A study of Mus musculus with 16 samples.

Results

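The carboxylesterases of the mouse liver are serine hydrolases encoded by the Ces genes. The 10 genes described here are Ces1b, Ces1d, Ces1e, Ces1f and Ces1g of the Ces1 subfamily, Ces2a, Ces2c and Ces2e of Ces2, and Ces3a and Ces3b of Ces3. They were chosen by symbol from the 50559 gene symbols in the table of expected counts. The same table holds 10 further Ces genes, which were used for context. All 10 chosen genes passed the filter on low counts, with between 222 and 57281 expected counts per library.

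Carboxylesterases cleave ester, amide and thioester bonds in drugs, in environmental chemicals and in the body's own lipids. Most are kept in the lumen of the endoplasmic reticulum by a retention signal at their end, where those of Ces1 meet the lipid that is loaded onto very-low-density lipoprotein (VLDL), while a few are secreted into plasma. In mice the family expanded into rows of neighbouring, similar genes, and the liver is one of their main sites of expression. The nuclear receptors CAR, PXR and PPARα, which sense foreign chemicals and fatty acids, are known regulators of members of the family.

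The study compared knockdown of ketohexokinase (KHK), the kinase that phosphorylates fructose, with inhibition of its kinase activity in mice on a high-fat diet. Liver RNA came from male C57BL/6J mice that started at 6 weeks of age, ate their diet through 10 weeks, and received the treatments during the final 4 weeks. There were 4 libraries in each of 4 groups. The LFD group was on a low-fat diet, which the deposited labels call chow, and the HFD group on a high-fat diet. Both were given an siRNA against luciferase as control, at 10 mg/kg once in 2 weeks, and gavages of methylcellulose. HFD + siRNA mice were given KHK siRNA (20 mg/kg), which carries a GalNAc tag that directs it to hepatocytes, in place of the control siRNA, and methylcellulose. HFD + Inhib mice were given the control siRNA (10 mg/kg) and the inhibitor PF-06835919 (15 mg/kg per gavage), which acts on the whole body. All mice thus received an siRNA and a gavage. The methods state that mice were given saline or insulin before the tissue was taken, and the labels do not say which, so that a difference in this between groups was not tested. Nothing in the labels pairs a mouse of one group with a mouse of another.

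The libraries held between 24317111 and 35820234 expected counts (median 29570114). The chi-square statistic per gene was between 18.5 and 136 over the 24 pairs of libraries within groups. The libraries come from separate mice, so a spread above sampling noise is usual, and these values only describe it. Levels are given as CPM, the expected counts relative to a library total scaled by TMM. Khk, the target of the siRNA, stood at 213.9, 233.0, 349.3 and 268.7 CPM in LFD libraries 1 to 4 and at 250.7, 322.5, 232.7 and 250.6 CPM in the HFD libraries. It stood at 11.83, 9.14, 18.14 and 11.52 CPM in the HFD + siRNA libraries, far below every other library. In the HFD + Inhib libraries it stood at 111.7, 151.9, 94.57 and 120.5 CPM, between the siRNA libraries and the others without overlap. The log2 fold change of Khk against HFD was -4.38 ± 0.23 (SE) with the siRNA (adjusted p = 1.88e-08) and -1.14 ± 0.20 with the inhibitor (adjusted p = 0.000752). The knockdown was thus present in each of the 4 libraries labelled with it.

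Markers of hepatocytes were abundant in every group. Their 10 genes summed to 83325 ± 8123 CPM (SD, n = 4) in LFD, 74544 ± 8273 in HFD, 78504 ± 6192 with the siRNA and 50601 ± 1310 with the inhibitor, with albumin (Alb) the most abundant. Most defining genes of other organs were near 0. The mean levels of Lct, Alpi, Cdx1 and Cdx2 of intestinal epithelium, where Ces2 genes are also expressed, were under 0.1 CPM in every group, that of Muc2 was at most 0.122 CPM (LFD), and Sis was at 0. The fatty acid-binding gene Fabp2 made up nearly the whole sum of that list, at 28.5 ± 4.06 CPM in LFD, 82.4 ± 8.07 in HFD, 97.5 ± 10.98 with the siRNA and 113 ± 17.2 with the inhibitor, and Vil1 was at most 0.613 ± 0.660 CPM (LFD). Those of Adipoq, Plin1, Lep and Retn of adipocytes, which also express Ces1d, were at most 0.177 CPM (Adipoq in LFD), while Cfd and Adrb3, the 2 genes of that list that passed the filter, rose from 2.59 ± 2.78 CPM in HFD to 34.5 ± 16.2 in HFD + Inhib and from 3.65 ± 0.563 to 15.2 ± 4.71 CPM. Their part in the values of Ces1d was not tested. In liver tissue, fewer cells of a type and less RNA per cell cannot be told apart.

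The family spanned a wide range of levels. Levels of different genes are compared per length, as CPM per kilobase of the mean reference transcript. In the LFD group, Ces3a was the most abundant of the 10 genes at 713 ± 57.6 CPM per kilobase (SD, n = 4). Ces1d followed at 285 ± 80.7, then Ces2a at 199 ± 13.6, Ces1f at 197 ± 13.4 and Ces3b at 182 ± 38.3. Lower levels were found for Ces1g (74.4 ± 24.1), Ces1e (72.6 ± 4.86) and Ces2e (55.5 ± 9.09). The lowest were Ces1b at 28.1 ± 3.10 and Ces2c at 15.3 ± 4.35 CPM per kilobase. Neighbours from Ces1d to Ces3b, and likewise Ces1g and Ces1e, were closer to each other than the sum of their SDs, so their order within these runs is not fixed.

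The most abundant Ces gene of the liver lies outside the 10. Ces1c, which encodes the secreted carboxylesterase of mouse plasma, stood at 1674 ± 85.0 CPM per kilobase in LFD and made up 47.8% ± 1.99 of the summed level of the 20 Ces genes per length. Its share was 53.0% ± 3.71 in HFD, 54.7% ± 1.74 with the siRNA and 29.8% ± 3.86 with the inhibitor. The share of the 10 chosen genes together was 51.8% ± 1.96 in LFD, 46.4% ± 3.67 in HFD, 44.9% ± 1.74 with the siRNA and 69.7% ± 3.90 with the inhibitor. Ces1d held 6.62% ± 0.402 of the sum in HFD and 14.4% ± 0.958 in HFD + Inhib, Ces1f 5.92% ± 0.791 and 11.4% ± 0.952, and Ces3a 20.8% ± 3.65 and 26.5% ± 3.70. The level of Ces3a itself was 579 ± 98.3 CPM per kilobase in HFD and 560 ± 115 in HFD + Inhib, and the sum of the 20 genes was 2794 ± 160 and 2102 ± 219. The mean length of Ces1c includes short transcripts. With the longest transcript of each gene instead, Ces1c stood at 405 ± 73.4 CPM per kilobase in HFD + Inhib and Ces3a at 540 ± 111. Ces3a then had the highest mean there, while Ces1c stayed first in the other groups. The order in HFD + Inhib is not fixed, since in its library 4 Ces1c was at 464 and Ces3a at 458. With the longest transcript Ces2a was at 156 ± 10.7 in LFD, below Ces3b at 163 ± 34.4.

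**Figure D1:**
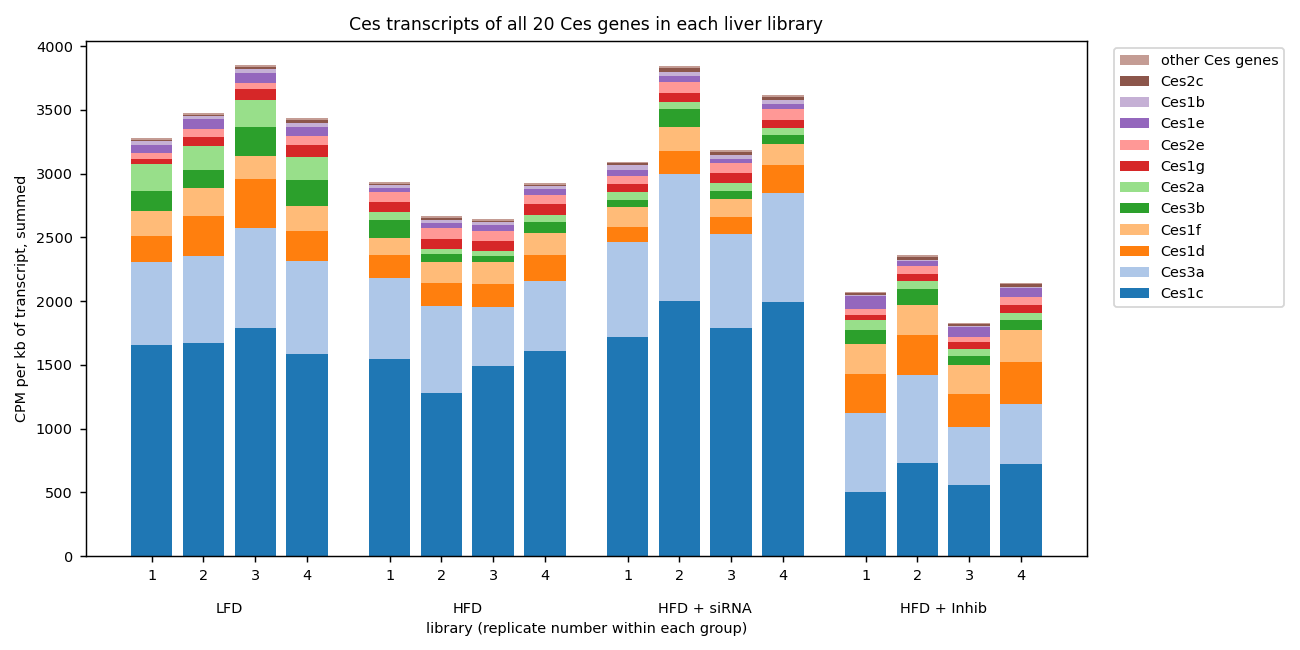
Summed level of the 20 Ces genes (CPM per kilobase of transcript, vertical axis from 0) in each of the 16 libraries (bars, grouped by treatment and numbered by replicate), with colours for the genes and the scarce ones joined. Totals were 3510 ± 242 in LFD, 2794 ± 160 in HFD, 3435 ± 355 with the siRNA and 2102 ± 219 with the inhibitor (SD, n = 4), and the lowest segment, Ces1c, is smallest in the inhibitor libraries.

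The largest difference between HFD and LFD among the 10 genes was in Ces2a. This enzyme of the Ces2 subfamily, known to hydrolyse diacylglycerol and triacylglycerol, stood at 326.4, 289.5, 320.6 and 285.6 CPM in LFD libraries 1 to 4 and at 98.62, 68.58, 66.73 and 93.08 CPM in the HFD libraries. Every LFD library was far above every HFD library, and the mean in HFD was 0.268 of that in LFD. The log2 fold change was -1.90 ± 0.13 (SE; adjusted p = 1.59e-06), the smallest p of the 18335 genes tested. As shares of the Ces sum per length, Ces2a held 5.68% ± 0.532 in LFD and 1.89% ± 0.275 in HFD. The 250 bases before its start site are shown because no other of the 10 genes changed as much with diet. They lie on the plus strand at chr8:104733753-104734002 (RefSeq, GRCm38.p6), and the capitals mark the 1 match to AGGTCA, the half-site bound by nuclear receptors, between 226 and 221 bases before the start.
Ces2a: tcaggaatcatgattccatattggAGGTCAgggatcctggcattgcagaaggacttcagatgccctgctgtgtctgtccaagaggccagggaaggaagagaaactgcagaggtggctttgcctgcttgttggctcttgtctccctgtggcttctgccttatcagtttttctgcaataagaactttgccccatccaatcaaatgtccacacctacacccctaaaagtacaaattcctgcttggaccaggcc
AGGTCA on either strand was found in 16.26% of 32851 mouse promoters of 300 bases, 250 before and 50 after the start, so a match is common. The RefSeq table had promoters for 7 of the 10 genes (Ces1b, Ces1e, Ces1g, Ces2a, Ces2c, Ces2e and Ces3b). Direct repeats of AGGTCA spaced by 1 base (DR1, in 0.04% of promoters) or 4 bases (DR4, 0.02%), the STAT5 motif TTCNNNGAA (8.3%) and the NRF2 motif TGACNNNGC (12.39%), each searched on both strands, had no match in these.

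**Figure D2:**
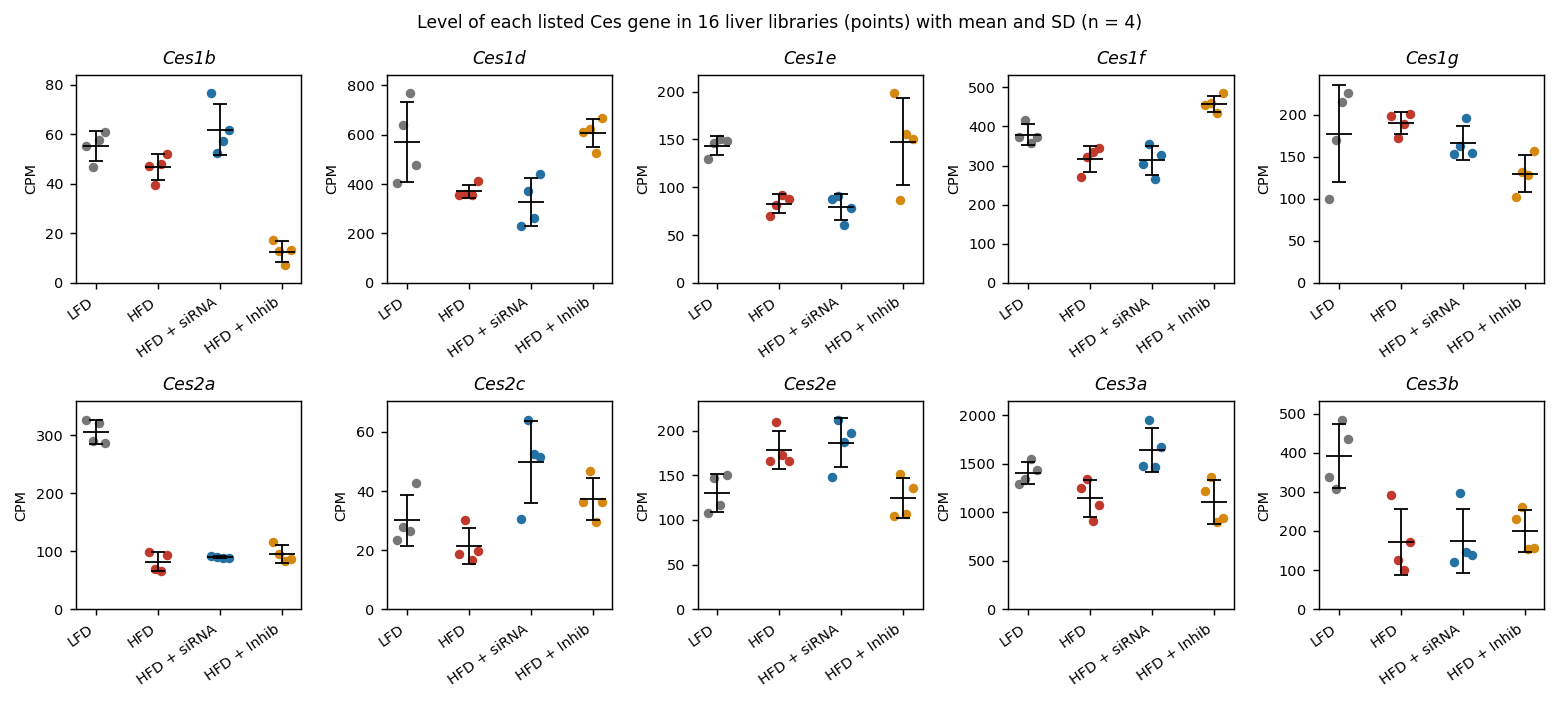
Level of each of the 10 genes (CPM, vertical axis, starting at 0) in each of 4 groups (horizontal axis). Points are single libraries, and lines show the mean and SD of 4. Ces2a lies between 285.6 and 326.4 CPM in LFD and between 66.73 and 116.0 CPM in the other groups, and Ces1b lies between 7.188 and 17.42 CPM in HFD + Inhib, below every other library.

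Lower levels in HFD were also found for Ces1e, Ces3b and Ces1d. Ces1e, known as egasyn, which holds β-glucuronidase in the endoplasmic reticulum, stood at 129.3, 146.5, 150.0 and 148.3 CPM in LFD and at 69.53, 81.78, 92.26 and 87.88 in HFD. These groups did not overlap, with a log2 fold change of -0.79 ± 0.19 (adjusted p = 0.00879). Ces3b stood at 338.0, 307.4, 484.1 and 435.8 CPM in LFD and at 291.0, 124.6, 101.5 and 170.6 in HFD, where library 1 came close to the lowest LFD library. Its log2 fold change was -1.19 ± 0.32 (adjusted p = 0.019). Ces1d, the triacylglycerol hydrolase that mobilises stored lipid for VLDL, stood at 406.1, 636.9, 766.1 and 476.7 CPM in LFD and at 356.4, 358.9, 356.5 and 410.9 in HFD. The groups overlapped by 1 library, since HFD library 4 was above LFD library 1, and the log2 fold change was -0.62 ± 0.20 (adjusted p = 0.038).

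Ces2e, an esterase encoded further along the same row, was higher in HFD. It stood at 108.0, 146.9, 116.6 and 150.5 CPM in LFD and at 166.6, 210.1, 172.6 and 165.8 in HFD, without overlap (log2 fold change 0.45 ± 0.15, adjusted p = 0.0408). Ces2a and Ces2e thus differed in direction within the same row of genes. In sum, 4 of the 10 genes were lower in HFD and 1 was higher, where 8.80% of the 18335 genes tested were lower and 9.58% higher (18.4% called in all). Of the cell type markers, 1 of 10 for hepatocytes was lower, and 1 each for stellate cells (of 9), endothelium (of 8), lymphocytes (of 7) and cholangiocytes (of 6) was higher. Of the 2 adipocyte markers tested 1 was higher and 1 lower, and Fabp2, the only intestinal marker tested, was higher. The part of these markers in the values of the Ces genes was not tested. The median log2 fold change of the 10 was -0.40, and that of the genes tested -0.01. The values of Ces1b (-0.24, adjusted p = 0.399), Ces1f (-0.26, 0.0842), Ces1g (0.10, 0.763), Ces2c (-0.50, 0.156) and Ces3a (-0.30, 0.185) did not pass the threshold, although each HFD library of Ces1f was below each LFD library and the gene passed after a correction for GC content and length (-0.30, 0.0179). The calls of Ces1d, Ces2e and Ces3b were each lost in fits with 1 library left out. There the log2 fold change of Ces1d was -0.606, -0.609, -0.606 and -0.671 without HFD replicates 1 to 4. Without LFD replicate 2 or 3 it was -0.566 and -0.443. That of Ces2e was 0.487, 0.471 and 0.496 without HFD replicate 1, 3 or 4. Without LFD replicate 1 or 3 or HFD replicate 2 it was 0.383, 0.411 and 0.368. Ces3b was at -1.066, -1.06 and -1.002 without LFD replicate 3 or HFD replicate 2 or 3. With all libraries the values were -0.62, 0.45 and -1.19. Ces1d did not pass without LFD replicate 2 or 3 or any 1 of the HFD replicates (adjusted p from 0.0614 to 0.155), Ces2e without LFD replicate 1 or 3 or any HFD replicate (0.0535 to 0.121), and Ces3b without LFD replicate 3 or HFD replicate 2 or 3 (0.0531 to 0.0637). The number of genes called was 3 without HFD replicate 1 or 4, and 2 without LFD replicate 3 or HFD replicate 2 or 3. Of all genes tested, 2816 and 2183 were called without HFD replicate 1 or 4. Without LFD replicate 3 or HFD replicate 2 or 3 it was 2001, 2879 and 2013. The fit of all libraries called 3370, and the number tested in these fits was between 18335 and 18674.

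With the KHK siRNA, Ces2c and Ces3a rose above HFD. Ces2c, an acylcarnitine and acylglycerol hydrolase, stood at 18.59, 30.31, 16.61 and 19.74 CPM in HFD libraries 1 to 4 and at 30.68, 64.13, 52.5 and 51.69 in the HFD + siRNA libraries. The groups just failed to overlap, as the lowest library with siRNA was next to the highest without. The log2 fold change was 1.22 ± 0.24 (adjusted p = 0.00448). Ces3a, the most abundant of the 10 genes, stood at 1247, 1347, 906.4 and 1074 CPM in HFD and at 1477, 1954, 1468 and 1678 with siRNA. Here too every siRNA library was above every HFD library, with a log2 fold change of 0.52 ± 0.15 (adjusted p = 0.0353). Ces2c and Ces3a were thus 2 of 10 called higher, and none was lower. Of the genes tested, 5.20% were higher and 6.55% lower (11.7% in all). Among the cell type markers, 1 of 10 for hepatocytes was higher and 1 of 8 for endothelium lower. Their part in the values of Ces2c and Ces3a was not tested.

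The other 8 genes did not pass the threshold with the siRNA. Ces2a stood at 90.98, 90.75, 88.67 and 88.96 CPM, within the range of the HFD libraries, and its log2 fold change against HFD was 0.14 (95% interval -0.13 to 0.41, adjusted p = 0.533). The interval leaves out a return to the LFD level, which was 1.90 higher on the log2 scale. Ces1b was the nearest to a call, at 47.12, 39.48, 48.18 and 52.11 CPM in HFD and 76.46, 52.29, 57.21 and 61.71 with siRNA (0.41, 95% interval 0.01 to 0.81, adjusted p = 0.176). The remaining 6 genes had log2 fold changes between -0.19 and 0.06. The median of the 10 was 0.05, and that of the genes tested 0.02. The call of Ces3a held in the fit of all libraries and was lost without HFD replicate 1, 3 or 4 or any HFD + siRNA replicate (adjusted p from 0.0505 to 0.12), which leaves 1 called gene, Ces2c. In those fits between 1100 and 1981 of all genes tested were called, against 2154 in the fit of all libraries. Ces2c shares 42.2% of its words of 50 bases with other genes, mainly the pseudogene Ces2d-ps, whose level was 0.76 CPM in HFD and 0.42 with siRNA.

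The KHK inhibitor moved members of the same subfamily in opposite directions. Ces1b, a close relative of the plasma esterase Ces1c, fell furthest. It stood at 47.12, 39.48, 48.18 and 52.11 CPM in HFD libraries 1 to 4 and at 17.42, 12.75, 7.188 and 13.34 in HFD + Inhib. Every inhibitor library was below each of the other 12 libraries, and the mean was 0.271 of that in HFD. The log2 fold change was -1.88 ± 0.20 (adjusted p = 6.5e-06). Ces1c, the gene next to it, stood at 1827, 1511, 1762 and 1899 CPM in HFD and at 596.8, 860.1, 653.7 and 848.2 in HFD + Inhib, again without overlap (-1.24 ± 0.12, adjusted p = 4.28e-06).

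The promoters of Ces1b and Ces1c are shown because these neighbours fell together. Over the windows of 300 bases they were 81.6% identical in a pairwise alignment, the highest of 119 pairs of Ces promoters (median 47.2%, lowest 42.9%). The 250 bases before each start site are printed, both on the minus strand (RefSeq, GRCm38.p6), with Ces1b at chr8:93079941-93080190 and Ces1c at chr8:93131284-93131533. Capitals mark the 212 bases that are identical in the alignment.
Ces1b: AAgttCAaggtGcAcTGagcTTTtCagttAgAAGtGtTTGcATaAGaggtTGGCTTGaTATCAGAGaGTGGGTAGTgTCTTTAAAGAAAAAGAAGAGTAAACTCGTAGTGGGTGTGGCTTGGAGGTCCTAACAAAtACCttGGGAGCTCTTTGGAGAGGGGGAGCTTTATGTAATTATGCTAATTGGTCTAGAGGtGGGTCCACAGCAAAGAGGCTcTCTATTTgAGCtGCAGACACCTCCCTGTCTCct
Ces1c: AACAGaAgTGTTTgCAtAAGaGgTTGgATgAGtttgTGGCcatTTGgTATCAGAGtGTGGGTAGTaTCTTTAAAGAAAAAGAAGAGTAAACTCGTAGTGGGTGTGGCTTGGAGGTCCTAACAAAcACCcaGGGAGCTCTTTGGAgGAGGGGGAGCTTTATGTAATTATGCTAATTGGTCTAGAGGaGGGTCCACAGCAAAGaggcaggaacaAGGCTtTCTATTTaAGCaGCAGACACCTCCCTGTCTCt
RefSeq lists a further start for Ces1b, and the window from that start was 50.5% identical to that of Ces1c, so the 81.6% holds for the printed start. Of the 50-base words of the Ces1b transcripts, 9.92% also occur in Ces1c. RSEM, the program that estimated the counts, divides such reads between the genes, and how far this joins the values of the pair was not tested.

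The other calls among the Ces1 members with the inhibitor were increases. Ces1d stood at 611.0, 623.5, 525.7 and 665.0 CPM in HFD + Inhib against 356.4, 358.9, 356.5 and 410.9 in HFD, without overlap (log2 fold change 0.71 ± 0.20, adjusted p = 0.0196). Ces1f, also known to act on hepatic triacylglycerol, stood at 454.0, 458.6, 435.0 and 484.1 CPM against 269.9, 322.5, 333.5 and 344.1, and its inhibitor libraries were the highest 4 of its HFD-fed libraries (0.53 ± 0.10, adjusted p = 0.00146). Ces1e stood at 198.0, 86.73, 155.6 and 150.9 CPM against 69.53, 81.78, 92.26 and 87.88. Inhibitor library 2 lay within the HFD range and the other 3 were above it (0.84 ± 0.19, adjusted p = 0.00496). Ces1g, which hydrolyses triacylglycerol and cholesteryl ester and whose loss is known to cause fatty liver, stood at 102.9, 132.5, 128.0 and 156.4 CPM against 198.5, 172.4, 189.7 and 200.9. The groups did not overlap, but the log2 fold change of -0.55 ± 0.19 did not pass the threshold in the fit of all libraries (adjusted p = 0.0563). It passed with DESeq2 (adjusted p = 0.0326), with the compared groups only (0.00911), with the replicate number as a block (0.0282), and after a correction for GC content and length (0.0203). Of 14 alternative fits, 5 brought it past the threshold. With 1 library left out, its adjusted p ranged from 0.0464 to 0.146.

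Ces2 split as well. Ces2c stood at 36.32, 46.94, 29.56 and 36.46 CPM in HFD + Inhib, of which library 3 lay within the HFD range (log2 fold change 0.80 ± 0.24, adjusted p = 0.0256). Ces2e stood at 104.6, 151.0, 107.1 and 136.0 CPM, below each HFD library (-0.52 ± 0.15, adjusted p = 0.0205), and Ces2g, further along the same cluster, at 22.75, 32.29, 28.56 and 29.68 CPM, was also below each HFD library (-0.70 ± 0.12, adjusted p = 0.000686). Ces2a, at 116.0, 95.36, 82.79 and 86.38 CPM, overlapped with HFD (0.22, 95% interval -0.05 to 0.49, adjusted p = 0.263). Ces3a and Ces3b did not pass either, with log2 fold changes of -0.05 (95% interval -0.37 to 0.27) and 0.22 (-0.45 to 0.90).

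With the inhibitor 4 of the 10 genes were thus higher and 2 lower than in HFD, where 9.80% of the genes tested were higher and 8.42% lower (18.2% in all). The median log2 fold change of the 10 was 0.22 and that of the genes tested -0.004, and the median of the absolute values was 0.54 against 0.25. Hepatocyte markers moved in the same libraries, with Alb (-0.77, adjusted p = 0.000761), Ttr (-0.93) and Cps1 (-0.53) lower, none of the 10 higher, and a summed level of 50601 CPM against 74544, and their part in the falls of Ces1b and Ces2e was not tested. Macrophage markers summed to 221 ± 41.0 CPM against 280 ± 26.3, with 3 of 10 lower. The calls of Ces1d, Ces2c and Ces2e were lost without single libraries. These were HFD replicate 1 or HFD + Inhib replicate 4 for Ces1d (adjusted p 0.0525 and 0.0528), HFD replicate 1, 3 or 4 or HFD + Inhib replicate 2 for Ces2c (0.0685 to 0.0858), and HFD replicate 2 or HFD + Inhib replicate 1 or 3 for Ces2e (0.0649 to 0.0726). Ces1g passed without HFD + Inhib replicate 4 (0.0464).

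**Figure D3:**
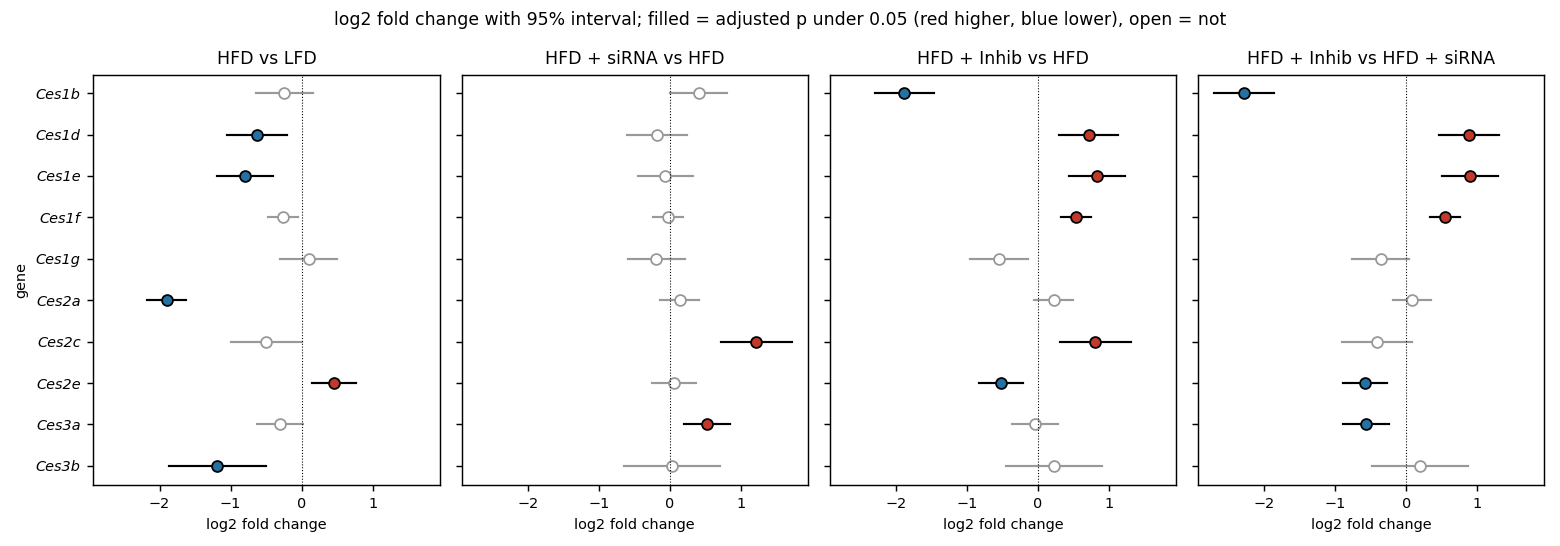
Log2 fold change (horizontal axis) of each of the 10 genes (vertical axis) in 4 comparisons (panels), with lines for the 95% interval. Filled points passed an adjusted p of 0.05, red for higher and blue for lower, and open points did not. Ces2a is at -1.90 in HFD versus LFD and near 0 with either treatment against HFD, while Ces1b is at -1.88 with the inhibitor and at 0.41 with the siRNA.

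The treatments were also compared with each other. Here the HFD libraries are not the reference, though they are part of the joint fit that gives the errors. Against the siRNA, the inhibitor group had lower Ces1b (log2 fold change -2.29 ± 0.20, adjusted p = 6.53e-07), Ces2e (-0.58 ± 0.15, 0.00633) and Ces3a (-0.57 ± 0.15, 0.00878). It had higher Ces1d (0.89 ± 0.20, 0.00283), Ces1e (0.90 ± 0.19, 0.00166) and Ces1f (0.55 ± 0.10, 0.000582). Libraries of the treatments did not overlap for Ces1b, Ces1d, Ces1f and Ces3a, and each of these 6 calls passed in every alternative. Counted over the 10 genes, 3 were higher and 3 lower with the inhibitor, where 17.3% of the genes tested were higher and 16.6% lower (33.8% in all). Ces2c, which was called higher than in HFD with both treatments, differed by -0.41 between them (95% interval -0.91 to 0.08, adjusted p = 0.183), and Ces2a by 0.08 (-0.19 to 0.35, 0.649). Ces1g (-0.36, 0.158) and Ces3b (0.19, 0.675) did not pass, although Ces1g did after a correction for GC content and length (-0.52, adjusted p = 0.0458). Cell type markers also moved between the treatments. With the inhibitor 1 of 10 hepatocyte markers was higher and 4 were lower, and 6 of 10 macrophage markers were lower (221 ± 41.0 CPM in sum against 331 ± 39.3). The 2 adipocyte markers tested were higher, as was 1 of 6 for cholangiocytes. For stellate cells 2 of 9 and for lymphocytes 2 of 7 were lower, and for endothelium 1 of 8 was higher and 1 lower. Their part in the differences of the Ces genes was not tested.

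Set against LFD, the treated groups showed which diet differences were present under treatment. These comparisons and that of HFD share the LFD libraries, so their values are given side by side and not as separate evidence. Ces2a was below LFD in each of them, at -1.90 in HFD, -1.77 ± 0.13 with the siRNA (adjusted p = 7.65e-07) and -1.68 ± 0.13 with the inhibitor (1.3e-07). Ces3b was at -1.19, -1.16 ± 0.32 (0.0355) and -0.96 ± 0.32 (0.0272). For Ces1e the values were -0.79, -0.86 ± 0.19 (0.00955) and 0.04 (95% interval -0.35 to 0.43), and for Ces1d they were -0.62, -0.80 ± 0.20 (0.0199) and 0.09 (-0.33 to 0.50). Ces2e was higher than LFD in HFD + siRNA (0.51 ± 0.15, 0.0384), and in HFD + Inhib it was at -0.07 (-0.38 to 0.24).

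In HFD + siRNA versus LFD, 4 of the 10 genes were lower and 1 higher, where 3.88% of the genes tested were lower and 4.75% higher (8.63% in all). Of the cell type markers, 2 of 10 for macrophages and 2 of 9 for stellate cells were higher in that comparison. So were 1 of the 2 adipocyte markers tested and Fabp2, the only intestinal marker tested. In HFD + Inhib versus LFD, 3 were lower (Ces1b at -2.12 ± 0.20, Ces2a and Ces3b) and 1 higher (Ces1f at 0.27 ± 0.10, adjusted p = 0.0413), where 18.2% were lower and 18.8% higher (36.9% in all). In that comparison 2 of 10 hepatocyte markers were higher and 5 lower, 3 of 10 macrophage markers were lower, and 1 of 8 endothelial markers was higher and 4 were lower. For lymphocytes 2 of 7 were lower, for stellate cells 1 of 9 was higher and 1 lower, and for cholangiocytes 1 of 6 was higher. The 2 adipocyte markers tested and Fabp2, the only intestinal one tested, were higher. The part of these markers in the values of the Ces genes was not tested. The call of Ces1f in HFD + Inhib was also lost with no filter on low counts (adjusted p = 0.0655), with the compared groups only (0.0556) and after a correction for GC content and length (0.12, 0.267), and with the compared groups only those of Ces1d (0.0939) and Ces2e (0.072) in HFD + siRNA were lost. Several of these calls were lost without single libraries. In HFD + siRNA versus LFD they were lost for Ces1d without LFD replicate 3 or HFD + siRNA replicate 1 or 3 (adjusted p 0.0578 to 0.0645), for Ces2e without LFD replicate 1 or 3 or HFD + siRNA replicate 2, 3 or 4 (0.0886 to 0.118), and for Ces3b without LFD replicate 3 or 4 or HFD + siRNA replicate 1, 3 or 4 (0.0674 to 0.1). In HFD + Inhib versus LFD they were lost for Ces1f without LFD replicate 1, 3 or 4 or HFD + Inhib replicate 1, 2 or 4 (0.0665 to 0.109) and for Ces3b without LFD replicate 3 or 4 or HFD + Inhib replicate 3 or 4 (0.0555 to 0.0793). Single libraries also brought calls, for Ces1f (HFD + siRNA replicate 2, 0.047) and Ces2c (LFD replicate 4, 0.0255, or HFD + siRNA replicate 1, 0.0271) in the former, and for Ces1g (LFD replicate 1, 0.00222) and Ces3a (HFD + Inhib replicate 2, 0.0301) in the latter. The count of genes called fell from 5 to 2 without LFD replicate 3 or HFD + siRNA replicate 3 and to 3 without HFD + siRNA replicate 4 in the former, and from 4 to 2 without LFD replicate 3 or 4 or HFD + Inhib replicate 4 in the latter. Over all genes tested, the calls in the former went from 1582 to 1090, 965 and 992 in these fits. In the latter they went from 6767 to 5477, 6646 and 5655.

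Summed over members, the subfamilies differed. The 5 Ces1 genes summed to 1327 ± 207 CPM in LFD, 1008 ± 66.8 in HFD, 949 ± 116 with the siRNA and 1355 ± 93.8 with the inhibitor. With the 3 further genes of Ces1, chiefly Ces1c, the order turned and HFD + Inhib was lowest, at 2094 ± 187 CPM against 2758 ± 209 in HFD. The 3 Ces2 genes summed to 466 ± 8.92 CPM in LFD, 282 ± 21.8 in HFD, 326 ± 40.9 with the siRNA and 257 ± 30.2 with the inhibitor, and LFD stayed highest with the further genes of Ces2 (507 ± 13.6 CPM). The Ces3 pair summed to 1798 ± 192, 1315 ± 240, 1820 ± 305 and 1306 ± 281 CPM, mostly Ces3a. Expressed over all 20 Ces genes the sums were 5610 ± 440, 4403 ± 248, 5350 ± 599 and 3690 ± 378 CPM.

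The Ces genes lie on chromosome 8 in rows, with Ces1a to Ces1h and Ces5a in the first and Ces2a to Ces2h, Ces3a, Ces3b and Ces4a in the second, and 68 other protein-coding genes between these rows. Neighbours in a row differed in direction. With the inhibitor, Ces1b and Ces1c were lower than in HFD while Ces1d, Ces1e and Ces1f, the next genes in the row, were higher. In the second row, Ces2c was higher and Ces2e and Ces2g lower, and with the high-fat diet Ces2a at one end and Ces4a at the other (2.18 ± 0.73 CPM in LFD, 0.56 ± 0.26 in HFD, log2 fold change -1.95 ± 0.46, adjusted p = 0.00937) were both lower with Ces2e higher between them. Of the 10 further Ces genes, Ces1c, Ces2b, Ces2d-ps, Ces2g and Ces4a passed the filter, and Ces5a had no count in any library.

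**Figure D4:**
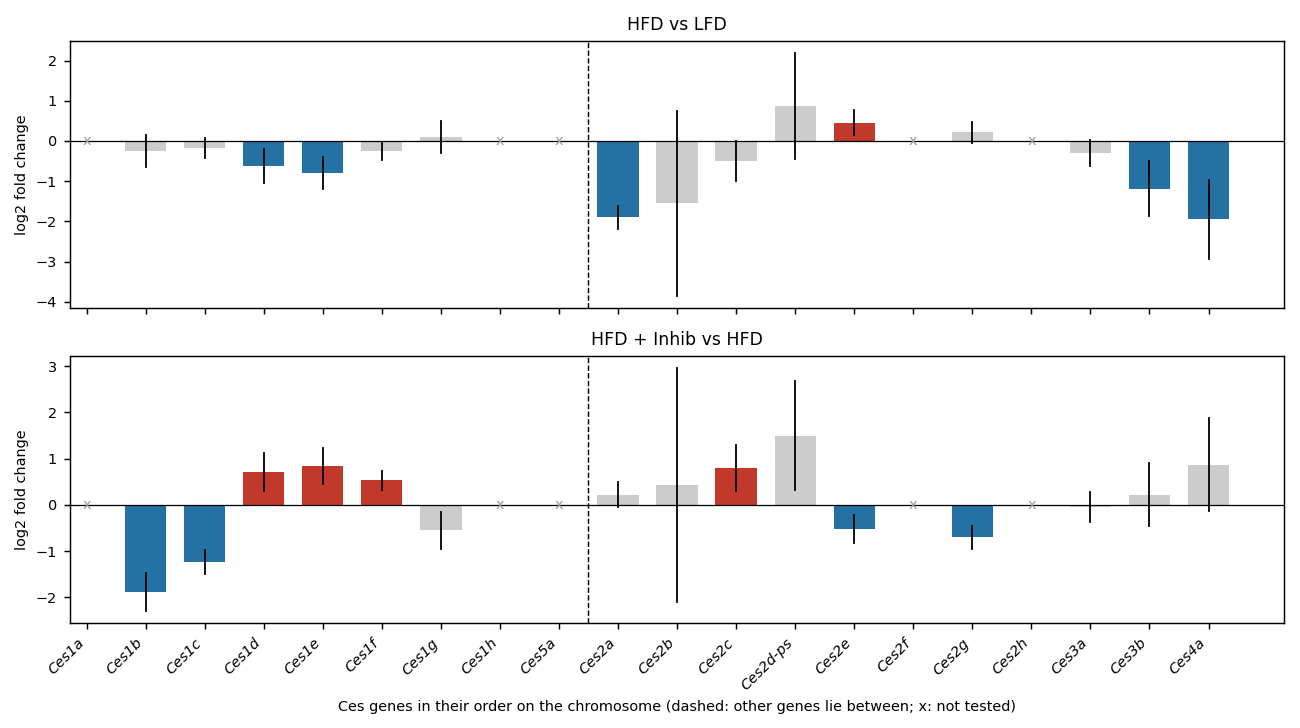
Log2 fold change (vertical axis, bars, with lines for the 95% interval) of the tested Ces genes in their order on chromosome 8 (horizontal axis, not to scale), for HFD versus LFD above and the inhibitor against HFD below. Red bars were called higher, blue lower and grey not, a cross marks a gene that was not tested, and the dashed line stands for 68 other protein-coding genes. In the lower panel, Ces1b (-1.88) and Ces1c (-1.24) point down beside Ces1d (0.71), Ces1e (0.84) and Ces1f (0.53) pointing up.

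Similarity between the genes bears on some of these values. Shared 50-base words made up 42.2% of Ces2c, 30.2% of Ces3a (all with Ces3b), 25.6% of Ces3b, 17.7% of Ces2a and 11.6% of Ces1b, and at most 3.30% of the other members. The partners of Ces2a and Ces2c were scarce. Gm7208, which shares 16.6% with Ces2a, was at 0.53 CPM in LFD, and Ces2d-ps, which shares 38.2% with Ces2c, was at 2.10 CPM in HFD + Inhib at most. Like Ces2a, Gm7208 was lower than LFD in HFD (log2 fold change -2.58, adjusted p = 0.000438), with the siRNA (-3.29, 0.000143) and with the inhibitor (-3.49, 1.42e-05). How the shared reads of these pairs were divided was not tested. Ces3a and Ces3b are both abundant, and how the program divided their shared reads was not tested. The GC content of the members, between 47.3% and 50.6%, spans little, while log2 fold changes across 3876 well-expressed genes followed GC content (Spearman's rho -0.47 for the diet, 0.46 for the siRNA against HFD and -0.21 for the inhibitor against HFD, across genes, which are not independent replicates). After a correction for GC content and length each call between HFD and LFD, and of either treatment against HFD, was kept, while that of Ces1f in HFD + Inhib versus LFD was lost (0.12, adjusted p = 0.267). Against LFD, the correction also brought calls of Ces1f in HFD (-0.30, adjusted p = 0.0179) and with the siRNA (-0.31, 0.0187) and of Ces1g with the inhibitor (-0.63, 0.0183).

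The family was set beside lists of related genes, whose medians can be read against those of the genes tested (-0.01 for the diet, 0.02 for the siRNA and -0.004 for the inhibitor). Their counts can be read against the shares of the genes tested that were called. For the diet 9.58% were higher and 8.80% lower, for the siRNA 5.20% and 6.55%, and for the inhibitor 9.80% and 8.42%. Of 20 genes of neutral lipid hydrolysis, 10 were higher and 2 lower than in HFD with the inhibitor (median log2 fold change 0.36), among them lipoprotein lipase (Lpl, log2 fold change 3.17, adjusted p = 3.44e-06) and the monoacylglycerol hydrolase Abhd6 (1.84, 2.7e-07) up and Pnpla6 (-0.57) and Daglb (-0.30) down. With the siRNA none was higher and 4 were lower (median -0.11), with Pnpla3 at -2.77 and the cholesteryl ester hydrolase Nceh1 at -0.80. In HFD versus LFD 5 were higher (median 0.04), with G0s2, the inhibitor of adipose triglyceride lipase, at 0.98 and Nceh1 at 0.90, and none was lower. Between the treatments, where 17.3% of the genes tested were higher with the inhibitor and 16.6% lower and their median was -0.04, 12 of the list were higher and 2 lower (median 0.63). Aadac, the microsomal deacetylase closest in role to Ces1d, did not pass in these 4 comparisons, with log2 fold changes between -0.11 and 0.27.

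For 17 genes of VLDL assembly and triglyceride synthesis, the medians were -0.06 for the diet, 0.06 for the siRNA and -0.05 for the inhibitor. In HFD versus LFD 1 was higher (Sar1b, 0.37) and 1 lower (Pla2g12b, -0.39), where 9.58% of the genes tested were higher and 8.80% lower. With the siRNA 1 was higher (P4hb, 0.45) and 2 lower, where 5.20% of the genes tested were higher and 6.55% lower. The 2 lower ones were Mttp (-0.52), which loads lipid onto apolipoprotein B, and Sar1b (-0.43). With the inhibitor Sar1b was higher (0.42) and 3 were lower, including Tm6sf2 (-0.76) and Apoc3 (-0.72). Of the genes tested, 9.80% were higher and 8.42% lower there. Between the treatments 2 were higher with the inhibitor (Sar1b 0.85, Mttp 0.67) and 7 lower (median -0.14). There 17.3% of the genes tested were higher and 16.6% lower. For 16 other esterases of drugs and esters the medians were 0.07, 0.17 and 0.195, and the shares of the genes tested are those just given. In HFD versus LFD 2 were higher (Bche, butyrylcholinesterase, 0.67, and Siae 0.26) and 3 lower (Afmid -0.64, Ephx1 -0.60). With the siRNA 3 were higher (Afmid 0.54, Ephx2 0.42) and 2 lower (Pon2 -0.30, Siae -0.28). The inhibitor gave 4 higher (Cmbl 1.01, and the soluble epoxide hydrolase Ephx2 0.91) and 2 lower (Apeh -0.48, Faah -0.30). Between the treatments 6 were higher with the inhibitor (Cmbl 0.69, Bche 0.56) and 3 lower (Apeh -0.67, Faah -0.45), with a median of 0.19.

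Among 14 regulators known for Ces genes (medians 0.07, 0.18 and -0.09), Ppara (0.81, adjusted p = 0.000757) and Nfe2l2, which encodes NRF2 (0.35), were higher and Stat5b (-0.53) lower in HFD versus LFD. With the siRNA none passed (Nr1i3, which encodes CAR, 0.45, adjusted p = 0.229). With the inhibitor Nr1i2, which encodes PXR, was higher (0.65, 8.4e-05), and Nr0b2 (-0.79) and Stat5b (-0.42) were lower. Of the genes tested, 9.58% were higher and 8.80% lower for the diet, 5.20% and 6.55% for the siRNA, and 9.80% and 8.42% for the inhibitor. Known targets of such receptors were measured in the same libraries. The part of the receptors in the values of the Ces genes was not tested. Of 20 PPARα targets, 19 were higher and none lower than in HFD with the inhibitor, with a median log2 fold change of 3.11, Ucp3 at 0.0385 ± 0.0315 CPM in HFD and 4.69 ± 1.73 in HFD + Inhib, and Cyp4a31 at a log2 fold change of 5.42, whereas with the siRNA none was higher and 4 were lower (median -0.125, Acot3 -1.44, Cidec -1.12). With the high-fat diet 6 were higher (median 0.39, Acot3 3.40, Cidec 3.04) and 1 was lower (Cyp4a12a, -1.54).

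Of 19 CAR and PXR targets tested (medians -0.43, 0.33 and -0.135), 3 were higher and 4 lower (Cyp2c55 -1.38, Cyp3a11 -1.24) in HFD versus LFD. The higher ones included Cyp2b13, with no count in LFD and 1.54 ± 0.962 CPM in HFD, and Cyp2b9, from 0.57 ± 0.41 to 115 ± 65.5 CPM. Among all genes tested, 9.58% were higher and 8.80% lower for the diet, 5.20% and 6.55% for the siRNA, and 9.80% and 8.42% for the inhibitor. With the siRNA 2 were higher (Abcc3 0.54, Ugt1a1 0.50) and 1 lower (Cyp3a11 -0.85), and with the inhibitor 5 were higher (Gadd45b 2.21, Por 1.30) and 3 lower (Gstm3 -1.79, Cyp2c37 -1.54). Of 16 NRF2 targets tested (medians -0.09, 0.03 and -0.03), 2 were higher (Gstm2 0.78, Srxn1 0.34) and 5 lower (Gsta2 -1.46, Gsta4 -0.93) in HFD versus LFD. With the siRNA 1 was higher (Gsta4 0.67) and none lower, where 5.20% of the genes tested were higher and 6.55% lower. With the inhibitor 3 were higher (Gstm4 0.88, Ephx1 0.69) and 4 lower (Gstm2 -2.16, Gsta1 -1.99). These lists overlap in Gstm3, the esterase list shares Ephx1 with the NRF2 targets, and it shares Aadac with neutral lipid hydrolysis.

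Across the 16 libraries, the genes with the pattern most like that of the member of each subfamily with the highest mean CPM, not scaled to length, were picked from 6211 genes by Pearson correlation of log2 CPM. For Ces1d they included Cnbp (r = 0.853) and Nlrp12 (0.808). For Ces2e they were Tmem19 (0.914), Apol7a (0.909) and Akr1c20 (0.892). Per length, Ces2e was below Ces2a over all libraries (66.0 against 93.1 CPM per kilobase). It was below in LFD (55.5 against 199) and HFD + Inhib (53.1 against 61.9), and above in HFD (76.1 against 53.2) and HFD + siRNA (79.4 against 58.5). For Ces3a they were Lmf1 (0.921), the maturation factor of lipases, Dnpep (0.910) and Taz (0.904). The points share their libraries, groups, depth and the GC trend, and the correlations are descriptions.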

How the data were processed

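Per the labels, the authors aligned reads to mm39 with STAR and deposited unscaled expected counts estimated by RSEM for 50559 gene symbols. RSEM splits reads shared by several genes, so 15.1% of values are fractional. The methods name HTG EdgeSeq, a probe assay, which does not give such values, and the assay behind the table is unresolved. What is said of GC content, length and shared sequence assumes reads along transcripts.

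The expected counts were rounded. Genes were kept by filterByExpr (minimum count 10, minimum total 15), leaving 18335 of the 33142 genes that had counts. After TMM scaling, 6 comparisons were tested in 1 fit of 16 libraries with edgeR's quasi-likelihood test (edgeR 4.0.16, R 4.3.3, dispersion 0.038), with Benjamini-Hochberg adjustment over the genes tested and a threshold of 0.05. Standard errors and 95% intervals of log2 fold changes come from this fit. P-values set a difference between groups against the spread between mice within groups (4 mice each). That spread was estimated jointly from the 16 libraries and moderated across genes. The depth of 24317111 to 35820234 counts gave the scarcest member 222 counts. Lengths, GC content and shared 50-base words were taken from GENCODE M21, in which 37796 symbols were found, and promoters and gene order from RefSeq (GRCm38.p6). No other coordinates are given, since the files use mm39. Log2 CPM had a prior count of 2.

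The 10 genes, the 7 gene lists and the 9 marker lists were chosen with earlier results of these data known. Genes named as called from a list were among the 2 with the largest change in each direction, and Aadac and Nr1i3, which were not called, were named after their values were seen. For likeness, the member of each subfamily with the highest mean CPM and the 3 non-Ces genes most correlated with it were taken among genes whose average log2 CPM was 4 or more, and 1 of them is not reported here. Alternatives were DESeq2 1.42.0, its size factors (RLE) in edgeR, no filter, a fit of each pair of groups alone, a block for the replicate number, a correction for GC content and length over 15858 genes, each library left out in turn, an adjusted p under 0.01, the longest transcript for levels per length, and whole subfamilies for sums. The code was tested on simulated data for HFD + Inhib versus HFD, where edgeR recovered 184 of 200 changed genes among 18044, with 8 false calls, and DESeq2 186 with 28.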

Additional observations from a re-analysis of the deposited data

Results flagged for a closer look

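In 4 of the 40 sets of 4 libraries (10 genes in 4 groups), 1 library stood far from the other 3, with a gap to the nearest one that was above Dixon's 95% limit for its share of the range. Chance alone gives about 1 such set in 20. HFD library 4 had 410.9 CPM of Ces1d, against 356.4 to 358.9 in the others. LFD library 1 had 129.3 CPM of Ces1e, against 146.5 to 150.0. HFD library 2 had 210.1 CPM of Ces2e, against 165.8 to 172.6. HFD + siRNA library 2 had 297.3 CPM of Ces3b, against 120.6 to 145.6.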

How the results depend on the processing

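Of 840 values of the 10 genes under alternatives, 740 kept their direction and side of the threshold, 59 lost a call, 17 gained one and 24 changed sign, none of them past the threshold. Of the 28 calls, 16 passed in every alternative and none changed sign. Deviations of same-numbered libraries of different groups had a median correlation of 0.07 (6 of 24 over 0.1, highest 0.336). Those of different-numbered libraries had a median of -0.02 (12 of 72 over 0.1, highest 0.193). Any link behind the replicate numbers was not tested. With the number as a block no call was lost. Ces1g in HFD + Inhib versus HFD (0.0282), Ces2c in HFD + siRNA versus LFD (0.0308) and Ces3a in HFD + Inhib versus LFD (0.0455) then passed. At an adjusted p under 0.01 the genes called numbered 2 for HFD against LFD, 1 for the siRNA and 3 for the inhibitor against HFD, and 2 for the siRNA and 2 for the inhibitor against LFD. The share of all genes under 0.01 was not counted. With the compared groups only, HFD + siRNA versus LFD had 3. That fit called 808 of 17341 genes tested, against 1582 of 18335 with all libraries. With 1 library left out, the counts ranged from 2 to 5 for HFD against LFD, from 1 to 2 for the siRNA against HFD, and against LFD from 2 to 5 for the siRNA and 2 to 4 for the inhibitor. In the same order, the calls over all genes tested ranged from 2001 to 3691, 1100 to 1981, 965 to 1456 and 5477 to 6830. With all libraries they were 3370, 2154, 1582 and 6767. The cause was not tested.

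Signs changed for values near 0. Khk in HFD versus LFD was at 0.0038 with the replicate block and 0.17 with the GC and length correction. With that correction Ces3b in HFD + siRNA versus HFD was at -0.026, and Ces1d and Ces1e in HFD + Inhib versus LFD were at -0.042 and -0.035. With 1 library left out, the log2 fold change ranged as follows. For Khk in HFD versus LFD it was from -0.12 to 0.15, and for Ces1g from -0.091 to 0.24. In HFD + siRNA versus HFD it was from -0.15 to 0.032 for Ces1e, -0.11 to 0.034 for Ces1f, -0.028 to 0.15 for Ces2e and -0.37 to 0.41 for Ces3b. In HFD + Inhib versus HFD it was from -0.17 to 0.040 for Ces3a, and in HFD + Inhib versus HFD + siRNA from -0.013 to 0.14 for Ces2a. Against LFD it was from -0.299 to 0.033 for Ces1g in HFD + siRNA, and in HFD + Inhib from -0.044 to 0.26 for Ces1d, -0.13 to 0.23 for Ces1e and -0.17 to 0.013 for Ces2e.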

Other observations

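The other cell type markers gave these values. Stellate cell markers summed to 362 ± 29.7 CPM (SD, n = 4) in LFD, 452 ± 40.2 in HFD, 480 ± 15.3 with the siRNA and 356 ± 26.7 with the inhibitor, with Reln the most abundant and 2 of 9 lower with the inhibitor than in HFD. Endothelial markers summed to 488 ± 39.2, 470 ± 31.3, 472 ± 40.1 and 441 ± 15.9 CPM, with 1 of 8 higher in that comparison. Lymphocyte markers summed to 13.4 ± 3.38, 18.6 ± 2.40, 13.1 ± 0.778 and 13.1 ± 2.52 CPM, mostly Ptprc, with 2 of 7 lower. Cholangiocyte markers summed to 33.5 ± 8.42, 38.3 ± 8.70, 36.3 ± 3.38 and 37.1 ± 10.0 CPM, with none of 6 called in that comparison and 1 higher in each of HFD versus LFD, the inhibitor versus the siRNA, and the inhibitor versus LFD. Prss2, Cpa1, Pnlip, Amy2a5, Cel and Ins2 of pancreas were under 0.1 CPM in every group, while Ctrb1 reached a mean of 1.55 ± 3.07 CPM in LFD.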
